A study of Arabidopsis thaliana with 71 samples.

Results

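The 10 core circadian clock genes of Arabidopsis thaliana were followed by RNA sequencing of whole seedlings: CCA1, LHY, PRR9, PRR7, PRR5, TOC1, GI, ELF3, ELF4 and LUX. They were chosen by name, as the genes that models of the plant clock place in its central loops, a rule that uses no measured value. Earlier results of these data were known when the 10 genes were chosen. All 10 were among the 22332 genes of the deposited table, and all 10 were among the 19406 genes tested, whose mean reached 1 FPKM in at least 1 group. FPKM are fragments mapped to a gene, scaled to transcript length and to the fragments mapped in the library. The closest to that limit was PRR9, with group means from 0.367 to 1.3 FPKM.

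The 71 libraries came from seedlings of the Columbia ecotype that had spent 7 days in flasks of liquid MS medium under cool white fluorescent lamps, when dexamethasone was added to 50 µM. The groups were 5 lines at 4 times, frozen at 0, 30, 60 and 120 min of the hormone. Wild type (WT) carried no transgene named in the labels and had 6 libraries per time. The 4 transgenic lines, GR-KAN1, GR-REV, GR-STM and GR-AS2, had 3 each, except GR-REV at 30 min with 2. In each, a leaf or meristem transcription factor was fused to the hormone-binding domain of a glucocorticoid receptor (GR), which keeps the protein in the cytoplasm until dexamethasone is given. AS2 and REV act on the upper side of the leaf, KAN1 on its lower side and STM in the shoot meristem. The promoter driving each fusion, the number of independent transgenic lines, the light schedule and the clock time of harvest are not in the labels, and no flasks were given a mock treatment. Dexamethasone, handling and the passing of up to 120 min therefore cannot be told apart in a change from 0 min.

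The plant clock is a set of genes that repress each other in turn over the day. The MYB-related factors CCA1 and LHY are made around dawn and repress the evening genes. The pseudo-response regulators PRR9, PRR7, PRR5 and TOC1 are expressed in that order from morning to evening and repress CCA1 and LHY. GI, an evening protein, works with the F-box proteins ZTL and FKF1 and links the clock to flowering. ELF3, ELF4 and LUX form the evening complex, a repressor in which LUX binds DNA, and which acts on PRR9, PRR7, GI and the growth gene PIF4 among others. In seedlings the level of each of these genes depends on the hour of sampling and on light and temperature.

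Before the clock genes are described, the libraries were checked against their labels. Each line had high levels of the gene it is named for, with no overlap with WT: AS2 stood at 119.8 to 425 FPKM in GR-AS2, STM at 66.7 to 342 in GR-STM, REV at 46.1 to 168 in GR-REV and KAN1 at 99.4 to 462 in GR-KAN1, against at most 6.34 FPKM for any of them in WT. Leaf and root genes were present in every library, among them CAB3 at 981 FPKM or more and EXPA7 at 1.73 FPKM or more. The leaf gene RBCS1A was listed at 0 in 58 of 71 libraries, so a listed 0 can be a failed estimate in this table; no clock gene was listed at 0 in any library. The library codes fall into 3 series, Ot79, Ot86 and OtA0. All GR libraries and WT replicates 1 to 3 are Ot79, and WT replicates 4 to 6 are Ot86 or OtA0, so the code series was a term of the model. Depth is unknown, because FPKM keep no read totals, and the precision of each value is that of its replicates.

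Sequences upstream of the genes are shown first, as a description, and their part in the results that follow was not tested. Within the 300 bases before each gene's annotated start, 4 short motifs known from clock promoters were searched on both strands. They were the evening element AAAATATCT, the CCA1 binding site AAAAATCT, the G-box CACGTG, and the LUX binding site GATACG or GATTCG. The same windows of 27443 genes held them in 2.79%, 7.94%, 7.09% and 14.3% of cases. CCA1 and LHY each held a G-box, as did PRR9, PRR7 and LUX, while TOC1, PRR5 and LUX held an evening element. PRR5 held 2 evening elements and a CCA1 binding site beside the element shown, and PRR9 a LUX binding site. ELF3 and ELF4 held only a LUX binding site, and GI held none of the 4 motifs in its window. The lines below give the motif in capitals with up to 20 bases on either side, 5′ to 3′ on the gene's strand, from the RefSeq TAIR10.1 assembly; AGATATTTT is the evening element read from the opposite strand.
CCA1, G-box, chr2:19245378-19245423, plus strand: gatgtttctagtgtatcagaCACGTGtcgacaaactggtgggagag
LHY, G-box, chr1:37926-37971, minus strand: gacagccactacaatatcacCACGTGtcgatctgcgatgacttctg
PRR9, G-box, chr2:19232415-19232460, plus strand: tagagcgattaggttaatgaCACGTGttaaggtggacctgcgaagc
PRR7, G-box, chr5:642206-642251, minus strand: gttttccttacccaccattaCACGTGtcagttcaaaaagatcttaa
LUX, G-box, chr3:17182829-17182874, plus strand: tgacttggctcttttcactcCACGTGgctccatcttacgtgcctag
LUX, evening element, chr3:17182969-17183017, plus strand: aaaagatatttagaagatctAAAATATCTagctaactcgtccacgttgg
TOC1, evening element, chr5:24674792-24674840, plus strand: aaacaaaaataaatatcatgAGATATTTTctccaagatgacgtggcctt
PRR5, evening element, chr5:8358705-8358753, minus strand: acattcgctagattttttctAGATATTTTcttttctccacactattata
The G-boxes of CCA1 and LHY began 193 and 80 bases before the gene start. That of LUX also began 193 bases before it, and its evening element 53 bases before it. In PRR9, which held 2 G-boxes, the motif shown began 172 bases before the start, and in PRR7 201 bases before it. A match is a description of the letters and not evidence of a bound site.

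LUX was the highest of the 10 genes and PRR9 the lowest, on the FPKM scale, which is per transcript length and so allows genes to be compared. Over the 71 libraries LUX averaged 25.4 ± 8.71 FPKM (SD, n = 71) and was above LHY in 59 of them. LHY followed with 14.2 ± 4.19, CCA1 with 13.2 ± 2.85 and ELF4 with 12.1 ± 4.28 FPKM. The levels of LHY, CCA1 and ELF4 overlapped widely: LHY was above CCA1 in 45 of 71 libraries and CCA1 above ELF4 in 47. TOC1 averaged 6.83 ± 1.43 FPKM and was below ELF4 in 68 of 71 libraries. PRR7 at 4.70 ± 1.66 and ELF3 at 4.01 ± 0.770 FPKM did not differ beyond their spread, PRR7 being higher in 46 of 71. GI averaged 2.26 ± 0.869 FPKM, PRR5 1.65 ± 0.550 and PRR9 0.875 ± 0.462 FPKM. ELF3 was above GI in 69 libraries, GI above PRR5 in 58 and PRR5 above PRR9 in 65. The genes also differed in how much they varied: the 20 group means spanned 3.54-fold in PRR9 and 1.45-fold in ELF3, the widest and the narrowest span. PRR7, GI and LHY spanned 3.28-fold, 3.22-fold and 3.02-fold.

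**Figure D1:**
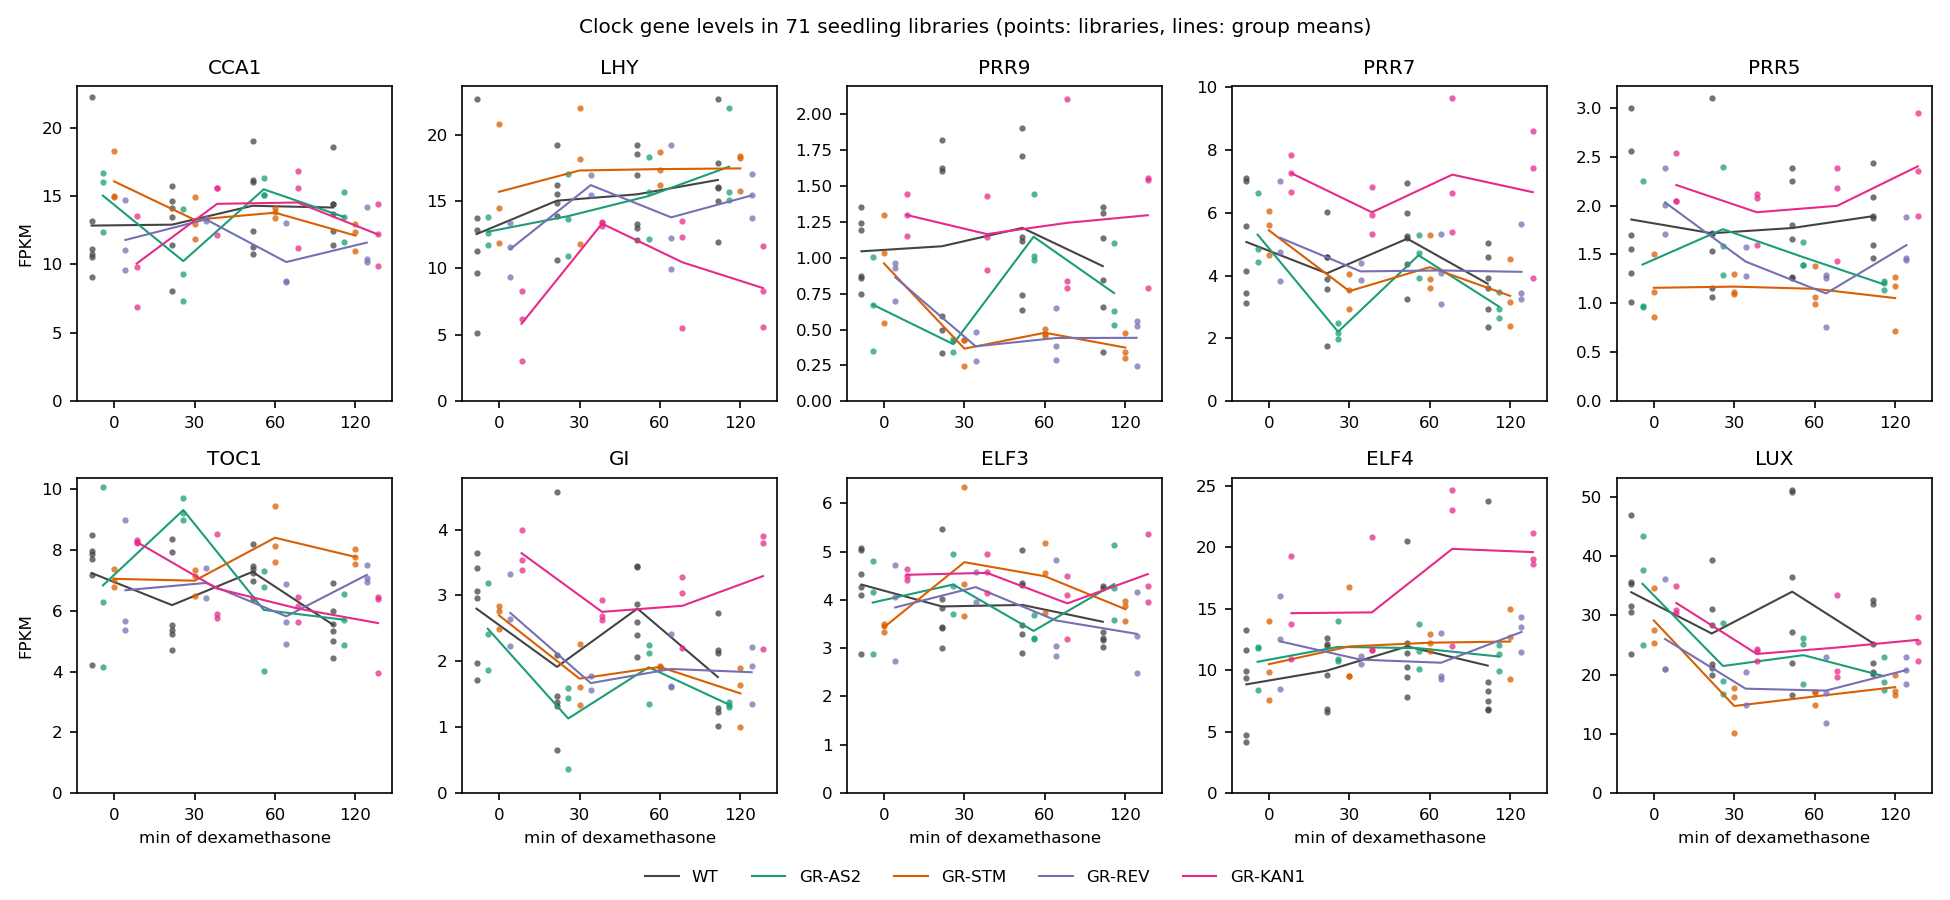
FPKM of each clock gene (y axis, linear from 0) in every library at 0, 30, 60 and 120 min of dexamethasone (x axis, times evenly spaced), with points for libraries, colours for the 5 lines and a line through each line's group means. The GR-KAN1 means lie below those of the other lines in LHY and above them in PRR7, GI and ELF4 at all 4 times, and the LUX means are lower at 30 min than at 0 min in all 5 lines.

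The dawn gene CCA1 (AT2G46830, chromosome 2, 19245591 to 19248915, plus strand, RefSeq TAIR10.1) varied little with line or time. The values given here and for the other genes are means ± SD over 6 libraries in WT and 3 in each GR line, except 2 in GR-REV at 30 min. Where the libraries of different times or lines are said to lie apart, that is a description with no test. How many of all genes separate in this way was not counted. In WT, CCA1 stood at 12.8 ± 4.81 FPKM at 0 min, 12.9 ± 2.78 at 30 min, 14.3 ± 3.27 at 60 min and 14.2 ± 2.48 at 120 min. For GR-AS2 the CCA1 level was 15.0 ± 2.32 FPKM at 0 min, 10.2 ± 3.45 at 30 min, 15.5 ± 0.692 at 60 min and 13.5 ± 1.81 at 120 min. The values of these lines overlapped at every time, and the library with most CCA1 of all 71 was a WT library at 0 min with 22.3 FPKM. CCA1 in GR-STM measured 16.1 ± 1.90 FPKM at 0 min, 13.3 ± 1.56 at 30 min, 13.8 ± 0.363 at 60 min and 12.1 ± 1.01 at 120 min. CCA1 in GR-REV measured 11.8 ± 2.62 FPKM at 0 min, 13.3 ± 0.130 at 30 min, 10.2 ± 2.49 at 60 min and 11.6 ± 2.26 at 120 min. In GR-KAN1 the level of CCA1 was 10.1 ± 3.34 FPKM at 0 min, 14.4 ± 2.00 at 30 min, 14.5 ± 2.95 at 60 min and 12.2 ± 2.25 at 120 min. GR-KAN1 at 0 min was the lowest group and GR-STM at 0 min the highest.

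LHY (AT1G01060, chromosome 1, 33365 to 37871, minus strand), the close relative of CCA1, differed more between groups. In WT, LHY stood at 12.5 ± 5.82 FPKM at 0 min, 15.1 ± 2.84 at 30 min, 15.5 ± 3.10 at 60 min and 16.6 ± 3.56 at 120 min. For GR-AS2 the LHY level was 12.7 ± 1.07 FPKM at 0 min, 13.9 ± 3.09 at 30 min, 15.4 ± 3.06 at 60 min and 17.6 ± 3.84 at 120 min. LHY in GR-STM measured 15.7 ± 4.57 FPKM at 0 min, 17.3 ± 5.16 at 30 min, 17.4 ± 1.25 at 60 min and 17.5 ± 1.47 at 120 min. In each of these lines the mean was lowest at 0 min, although the later libraries overlapped those of 0 min, except in GR-AS2 at 120 min. LHY in GR-REV measured 11.4 ± 2.06 FPKM at 0 min, 16.2 ± 1.03 at 30 min, 13.8 ± 4.87 at 60 min and 15.4 ± 1.65 at 120 min. The LHY level in GR-KAN1 came to 5.82 ± 2.67 FPKM at 0 min, 13.3 ± 0.172 at 30 min, 10.4 ± 4.33 at 60 min and 8.50 ± 3.05 at 120 min. The single GR-KAN1 libraries held 6.18, 8.29 and 2.99 FPKM at 0 min, 13.1, 13.4 and 13.5 at 30 min, 5.47, 13.5 and 12.3 at 60 min and 8.27, 5.57 and 11.6 at 120 min. All 3 GR-KAN1 libraries at 0 min lay below those of the other GR lines at 0 min, while WT reached down to 5.10 FPKM there and overlapped them.

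PRR9 (AT2G46790, chromosome 2, 19232607 to 19235179, plus strand), the first of the pseudo-response regulators to be expressed in the day, was close to the lower limit of measurement. Its values are uncertain for a further reason: 790 of 2524 windows of 50 bases in the gene also occur in AT2G46670, a neighbour on chromosome 2 at 0.713 ± 0.323 FPKM, so reads could be split between them. The other 9 clock genes shared no such window with the rest of the genome. In WT, PRR9 stood at 1.05 ± 0.249 FPKM at 0 min, 1.08 ± 0.672 at 30 min, 1.21 ± 0.510 at 60 min and 0.942 ± 0.399 at 120 min. For GR-AS2 the PRR9 level was 0.673 ± 0.327 FPKM at 0 min, 0.399 ± 0.0467 at 30 min, 1.15 ± 0.258 at 60 min and 0.754 ± 0.307 at 120 min. PRR9 in GR-STM measured 0.961 ± 0.383 FPKM at 0 min, 0.367 ± 0.104 at 30 min, 0.478 ± 0.0256 at 60 min and 0.374 ± 0.0899 at 120 min. In GR-STM the 3 libraries at each later time lay below the 3 at 0 min. PRR9 in GR-REV measured 0.864 ± 0.141 FPKM at 0 min, 0.383 ± 0.142 at 30 min, 0.441 ± 0.186 at 60 min and 0.442 ± 0.174 at 120 min. Seedlings of GR-KAN1 had PRR9 at 1.3 ± 0.147 FPKM at 0 min, 1.17 ± 0.257 at 30 min, 1.24 ± 0.746 at 60 min and 1.3 ± 0.441 at 120 min. GR-REV showed the same pattern as GR-STM, with all later libraries below those at 0 min, and the GR-KAN1 means stayed above 1 FPKM at every time.

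PRR7 (AT5G02810, chromosome 5, 637681 to 642030, minus strand), which follows PRR9 in the morning, had its highest means in GR-KAN1. In WT, PRR7 stood at 5.07 ± 1.76 FPKM at 0 min, 4.07 ± 1.42 at 30 min, 5.18 ± 1.28 at 60 min and 3.74 ± 0.992 at 120 min. For GR-AS2 the PRR7 level was 5.30 ± 1.16 FPKM at 0 min, 2.21 ± 0.261 at 30 min, 4.65 ± 0.682 at 60 min and 3.01 ± 0.421 at 120 min. PRR7 in GR-STM measured 5.44 ± 0.715 FPKM at 0 min, 3.51 ± 0.560 at 30 min, 4.27 ± 0.903 at 60 min and 3.35 ± 1.08 at 120 min. In GR-AS2 and GR-STM all 3 libraries at 30 min lay below all 3 at 0 min, and in WT the times overlapped. PRR7 in GR-REV measured 5.2 ± 1.63 FPKM at 0 min, 4.13 ± 0.373 at 30 min, 4.16 ± 1.1 at 60 min and 4.12 ± 1.33 at 120 min. In GR-KAN1 the level of PRR7 was 7.26 ± 0.581 FPKM at 0 min, 6.02 ± 0.746 at 30 min, 7.22 ± 2.19 at 60 min and 6.66 ± 2.43 at 120 min. GR-KAN1 had the highest mean of the 5 lines at each of the 4 times, with single libraries down to 3.94 FPKM at 120 min.

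PRR5 (AT5G24470, chromosome 5, 8356204 to 8358546, minus strand), the afternoon member of the family, had group means between 1.05 and 2.40 FPKM. In WT, PRR5 stood at 1.86 ± 0.762 FPKM at 0 min, 1.72 ± 0.733 at 30 min, 1.77 ± 0.479 at 60 min and 1.89 ± 0.348 at 120 min. For GR-AS2 the PRR5 level was 1.40 ± 0.741 FPKM at 0 min, 1.76 ± 0.572 at 30 min, 1.47 ± 0.131 at 60 min and 1.19 ± 0.0473 at 120 min. PRR5 in GR-STM measured 1.16 ± 0.323 FPKM at 0 min, 1.17 ± 0.110 at 30 min, 1.15 ± 0.207 at 60 min and 1.05 ± 0.297 at 120 min. GR-STM had the lowest mean of the 5 lines at 0, 30 and 120 min. PRR5 in GR-REV measured 2.03 ± 0.338 FPKM at 0 min, 1.43 ± 0.208 at 30 min, 1.10 ± 0.297 at 60 min and 1.6 ± 0.249 at 120 min. The PRR5 level in GR-KAN1 came to 2.21 ± 0.287 FPKM at 0 min, 1.93 ± 0.295 at 30 min, 2.00 ± 0.496 at 60 min and 2.40 ± 0.528 at 120 min. The GR-KAN1 mean was the highest of the 5 lines at all 4 times. No GR-KAN1 library exceeded the highest WT library of any time, 3.10 FPKM at 30 min. At 120 min GR-KAN1 reached 2.95 FPKM and WT 2.43 FPKM. In GR-REV the libraries at 30 and 60 min lay below those at 0 min.

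TOC1 (AT5G61380, chromosome 5, 24674963 to 24678550, plus strand), the evening pseudo-response regulator, showed no common course across the lines. In WT, TOC1 stood at 7.25 ± 1.54 FPKM at 0 min, 6.19 ± 1.55 at 30 min, 7.29 ± 0.594 at 60 min and 5.55 ± 0.849 at 120 min. For GR-AS2 the TOC1 level was 6.84 ± 3.00 FPKM at 0 min, 9.32 ± 0.360 at 30 min, 6.03 ± 1.76 at 60 min and 5.71 ± 0.851 at 120 min. TOC1 in GR-STM measured 7.06 ± 0.297 FPKM at 0 min, 7.0 ± 0.445 at 30 min, 8.41 ± 0.947 at 60 min and 7.78 ± 0.250 at 120 min. GR-AS2 at 30 min was the highest of the 20 groups, with libraries at 9.72, 9.24 and 9.01 FPKM, but its 0 min libraries spread from 4.15 to 10.1 FPKM. TOC1 in GR-REV measured 6.68 ± 2.01 FPKM at 0 min, 6.92 ± 0.715 at 30 min, 5.82 ± 1.00 at 60 min and 7.19 ± 0.301 at 120 min. Seedlings of GR-KAN1 had TOC1 at 8.27 ± 0.0573 FPKM at 0 min, 6.74 ± 1.55 at 30 min, 6.08 ± 0.413 at 60 min and 5.6 ± 1.43 at 120 min. In GR-KAN1 the libraries at 60 and 120 min lay below those at 0 min, whereas in GR-STM those at 60 and 120 min lay above them.

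GI (AT1G22770, chromosome 1, 8061751 to 8067790, plus strand), the evening partner of the F-box proteins ZTL and FKF1, had lower means at 30 and 120 min than at 0 min in all 5 lines. In WT, GI stood at 2.80 ± 0.780 FPKM at 0 min, 1.92 ± 1.38 at 30 min, 2.80 ± 0.559 at 60 min and 1.76 ± 0.679 at 120 min. For GR-AS2 the GI level was 2.49 ± 0.668 FPKM at 0 min, 1.13 ± 0.668 at 30 min, 1.91 ± 0.493 at 60 min and 1.34 ± 0.0327 at 120 min. GI in GR-STM measured 2.70 ± 0.178 FPKM at 0 min, 1.74 ± 0.476 at 30 min, 1.91 ± 0.0165 at 60 min and 1.51 ± 0.459 at 120 min. In GR-AS2 and GR-STM the libraries at 30 min lay below those at 0 min, and in WT a library with 4.57 FPKM at 30 min, the highest of all 71, overlapped the 0 min group. GI in GR-REV measured 2.73 ± 0.550 FPKM at 0 min, 1.67 ± 0.149 at 30 min, 1.88 ± 0.459 at 60 min and 1.83 ± 0.438 at 120 min. In GR-KAN1 the level of GI was 3.64 ± 0.316 FPKM at 0 min, 2.75 ± 0.159 at 30 min, 2.84 ± 0.564 at 60 min and 3.29 ± 0.960 at 120 min. GR-KAN1 had the highest mean of the 5 lines at every time.

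ELF3 (AT2G25930, chromosome 2, 11058944 to 11063324, plus strand), the scaffold of the evening complex, varied least. In WT, ELF3 stood at 4.32 ± 0.805 FPKM at 0 min, 3.86 ± 0.863 at 30 min, 3.90 ± 0.80 at 60 min and 3.55 ± 0.561 at 120 min. For GR-AS2 the ELF3 level was 3.95 ± 0.977 FPKM at 0 min, 4.32 ± 0.616 at 30 min, 3.36 ± 0.278 at 60 min and 4.33 ± 0.786 at 120 min. ELF3 in GR-STM measured 3.43 ± 0.0807 FPKM at 0 min, 4.78 ± 1.39 at 30 min, 4.49 ± 0.724 at 60 min and 3.81 ± 0.213 at 120 min. In GR-STM the 3 libraries of each later time lay above those of 0 min, and in WT and GR-AS2 the times overlapped. ELF3 in GR-REV measured 3.84 ± 1.01 FPKM at 0 min, 4.26 ± 0.432 at 30 min, 3.57 ± 1.09 at 60 min and 3.30 ± 0.837 at 120 min. The ELF3 level in GR-KAN1 came to 4.52 ± 0.116 FPKM at 0 min, 4.56 ± 0.407 at 30 min, 3.93 ± 0.675 at 60 min and 4.54 ± 0.730 at 120 min. The gene overlaps an antisense RNA, AT2G08135, by 183 bases and ALPHA-VPE by 24 bases, and whether the counting used strand is not given in the sources used here.

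ELF4 (AT2G40080, chromosome 2, 16734294 to 16734953, minus strand), the small protein of the evening complex, had its highest means in GR-KAN1. In WT, ELF4 stood at 8.84 ± 3.68 FPKM at 0 min, 9.96 ± 2.70 at 30 min, 11.9 ± 4.48 at 60 min and 10.4 ± 6.60 at 120 min. For GR-AS2 the ELF4 level was 10.7 ± 2.00 FPKM at 0 min, 11.9 ± 1.84 at 30 min, 11.8 ± 1.86 at 60 min and 11.1 ± 1.07 at 120 min. ELF4 in GR-STM measured 10.5 ± 3.27 FPKM at 0 min, 11.9 ± 4.17 at 30 min, 12.2 ± 0.669 at 60 min and 12.3 ± 2.87 at 120 min. GR-AS2 and GR-STM overlapped the WT libraries at every time. At 120 min, however, all libraries of the 4 GR lines lay above the 3 WT libraries of Ot79, whose mean was 7.56 FPKM. Single WT libraries reached 20.5 FPKM at 60 min and 23.7 FPKM at 120 min. ELF4 in GR-REV measured 12.3 ± 3.78 FPKM at 0 min, 10.9 ± 0.469 at 30 min, 10.6 ± 2.09 at 60 min and 13.1 ± 1.48 at 120 min. Seedlings of GR-KAN1 had ELF4 at 14.6 ± 4.29 FPKM at 0 min, 14.7 ± 5.28 at 30 min, 19.9 ± 6.91 at 60 min and 19.6 ± 1.37 at 120 min. At 120 min the 3 GR-KAN1 libraries, at 18.6, 19.0 and 21.2 FPKM, were above every other library of that time except 1 of WT.

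LUX (AT3G46640, chromosome 3, 17183042 to 17186959, plus strand), the DNA-binding member of the evening complex, had its highest mean at 0 min in each GR line. In WT, LUX stood at 33.9 ± 7.74 FPKM at 0 min, 26.9 ± 7.54 at 30 min, 34.0 ± 14.7 at 60 min and 25.3 ± 5.66 at 120 min. For GR-AS2 the LUX level was 35.3 ± 9.43 FPKM at 0 min, 21.5 ± 6.37 at 30 min, 23.3 ± 4.22 at 60 min and 19.7 ± 2.92 at 120 min. LUX in GR-STM measured 29.1 ± 4.81 FPKM at 0 min, 14.7 ± 4.06 at 30 min, 16.3 ± 1.28 at 60 min and 17.9 ± 1.76 at 120 min. In GR-STM no later library reached the level of any 0 min library. LUX in GR-REV measured 26.0 ± 8.76 FPKM at 0 min, 17.6 ± 3.90 at 30 min, 17.3 ± 5.58 at 60 min and 20.8 ± 2.28 at 120 min. In GR-KAN1 the level of LUX was 32.1 ± 2.44 FPKM at 0 min, 23.5 ± 1.09 at 30 min, 24.6 ± 7.77 at 60 min and 25.9 ± 3.67 at 120 min. GR-REV at 60 min overlapped its 0 min group, and WT at 60 min had single libraries between 16.5 and 51.2 FPKM. LUX overlaps AT3G46650, a gene on the opposite strand, over 1507 bases. That neighbour stood at 2.09 ± 1.18 FPKM over the 71 libraries, and without strand its reads and those of LUX cannot be told apart.

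The change with time was tested first as the mean of the 5 lines, in which each line has equal weight. LUX, GI, PRR7 and PRR9 fell and LHY rose at 30 min, the same 5 genes passed in the same directions at 120 min, and at 60 min only LUX passed. CCA1, PRR5, TOC1, ELF3 and ELF4 did not pass at any time. In all, 5, 1 and 5 of the 10 clock genes were called at 30, 60 and 120 min, against 6.06%, 5.30% and 10.6% of the 19406 genes tested. At 30 min 1 of 10 was higher and 4 lower, beside 2.48% and 3.58% of all genes, and at 120 min the counts were the same, beside 5.02% and 5.55%. At 60 min 1 was lower, beside 2.58%. The test was limma's moderated test on log2(FPKM + 0.5), two-sided, with Benjamini-Hochberg adjustment over all genes tested and calls at an adjusted p under 0.05. The 3 times share their 0 min libraries. The median log2 change of the 10 was -0.03, -0.10 and -0.08, beside 0.01 for all genes at each time.

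LHY over the 18 libraries of 0 min had a lowest, median and highest level of 2.99, 11.8 and 22.7 FPKM, against 10.6, 14.9 and 22.0 FPKM over the 17 libraries of 30 min and 5.57, 15.7 and 22.7 FPKM over the 18 of 120 min. The ranges overlapped, with the median higher at the later times. The fitted log2 change was 0.49 (SE 0.14, adjusted p = 0.0223) at 30 min, 0.37 (SE 0.13, adjusted p = 0.0938) at 60 min and 0.45 (SE 0.14, adjusted p = 0.0234) at 120 min, positive in 5 of 5 lines at each time. In GR-KAN1 the change at 30 min was 1.23, and in the other lines it lay between 0.10 in GR-AS2 and 0.50 in GR-REV. The call at 30 min was lost without GR-KAN1 0 min replicate 3 (adjusted p = 0.0570), GR-REV 30 min replicate 1 (0.0628) or GR-STM 30 min replicate 3 (0.0537) by limma. That at 120 min was lost without GR-KAN1 0 min replicate 3 (0.0607) or GR-KAN1 120 min replicate 3 (0.0562). Without the 5 libraries least typical of their groups, of which GR-KAN1 0 min replicate 3 is 1, the adjusted p was 0.0552 at 30 min and 0.0621 at 120 min. At 60 min it was gained without GR-KAN1 60 min replicate 1 (0.0283) or WT 0 min replicate 5 (0.0415). The estimates for CCA1 were -0.03 (95% interval -0.24 to 0.18) at 30 min, 0.07 (95% interval -0.13 to 0.27) at 60 min and -0.04 (95% interval -0.24 to 0.17) at 120 min, none of which passed.

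PRR7 had a lowest, median and highest level of 3.12, 5.6 and 7.83 FPKM at 0 min, 1.75, 3.90 and 6.81 at 30 min and 2.38, 3.53 and 8.60 at 120 min. The medians at both later times lay below that of 0 min, with overlap. Its log2 change was -0.52 (SE 0.12, adjusted p = 0.00547) at 30 min and -0.49 (SE 0.12, adjusted p = 0.00553) at 120 min, negative in 5 of 5 lines at both. PRR9 had 0.347, 0.983 and 1.45 FPKM at 0 min, 0.247, 0.483 and 1.82 at 30 min and 0.242, 0.643 and 1.56 at 120 min. Its spread was wide at the later times, when GR-STM and GR-REV were low and GR-KAN1 was not. The log2 change of PRR9 was -0.44 (SE 0.12, adjusted p = 0.0146) at 30 min, negative in 5 of 5 lines, and -0.35 (SE 0.11, adjusted p = 0.0377) at 120 min, negative in 4 of 5. The call at 120 min was lost in 14 of 36 fits that left out 1 library, with adjusted p up to 0.0771, and both were lost without the code series term (0.0919 and 0.186, limma). For the neighbour AT2G46670, which shares sequence with PRR9, the log2 changes were -0.22 (SE 0.09, adjusted p = 0.122) and -0.13 (SE 0.09, adjusted p = 0.329), neither of which passed. At 60 min neither passed, at -0.15 (95% interval -0.39 to 0.09) for PRR7 and -0.12 (95% interval -0.34 to 0.11) for PRR9. The estimates for PRR5 were -0.04 (95% interval -0.23 to 0.16) at 30 min, -0.14 (95% interval -0.33 to 0.05) at 60 min and -0.02 (95% interval -0.21 to 0.17) at 120 min, and those for TOC1 0.04 (95% interval -0.14 to 0.22), -0.09 (95% interval -0.26 to 0.08) and -0.12 (95% interval -0.29 to 0.06), none of which passed.

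GI had a lowest, median and highest level of 1.72, 2.90 and 4.00 FPKM at 0 min, 0.366, 1.59 and 4.57 at 30 min and 1.00, 1.77 and 3.90 at 120 min. The medians at 30 and 120 min lay below that of 0 min, and the ranges overlapped. The log2 change of GI was -0.57 (SE 0.13, adjusted p = 0.00298) at 30 min and -0.48 (SE 0.13, adjusted p = 0.00826) at 120 min, negative in 5 of 5 lines at both, and both calls were kept whichever library was left out. At 60 min GI did not pass, at -0.29 (95% interval -0.54 to -0.04). LUX had 20.9, 31.3 and 46.9 FPKM at 0 min, 10.1, 21.1 and 39.4 at 30 min, 11.9, 21.3 and 51.2 at 60 min and 16.6, 21.4 and 32.5 at 120 min. The medians of the later times lay near each other and below that of 0 min, and the highest later libraries were of WT at 60 min. The log2 change of LUX was -0.59 (SE 0.11, adjusted p = 0.000336), -0.49 (SE 0.11, adjusted p = 0.00185) and -0.48 (SE 0.11, adjusted p = 0.00203) at the 3 times, negative in 5 of 5 lines at each. The call at 60 min was lost without the 5 libraries least typical of their groups, at an adjusted p of 0.0526. Its opposite-strand neighbour AT3G46650 moved the other way, by 0.43 (SE 0.12, adjusted p = 0.0172) at 30 min and 0.34 (SE 0.12, adjusted p = 0.0488) at 120 min. The estimates for ELF3 were 0.14 (95% interval -0.03 to 0.30) at 30 min, -0.05 (95% interval -0.22 to 0.11) at 60 min and 0.00 (95% interval -0.16 to 0.17) at 120 min, and those for ELF4 0.03 (95% interval -0.24 to 0.31), 0.21 (95% interval -0.05 to 0.48) and 0.14 (95% interval -0.14 to 0.41), none of which passed.

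**Figure D2:**
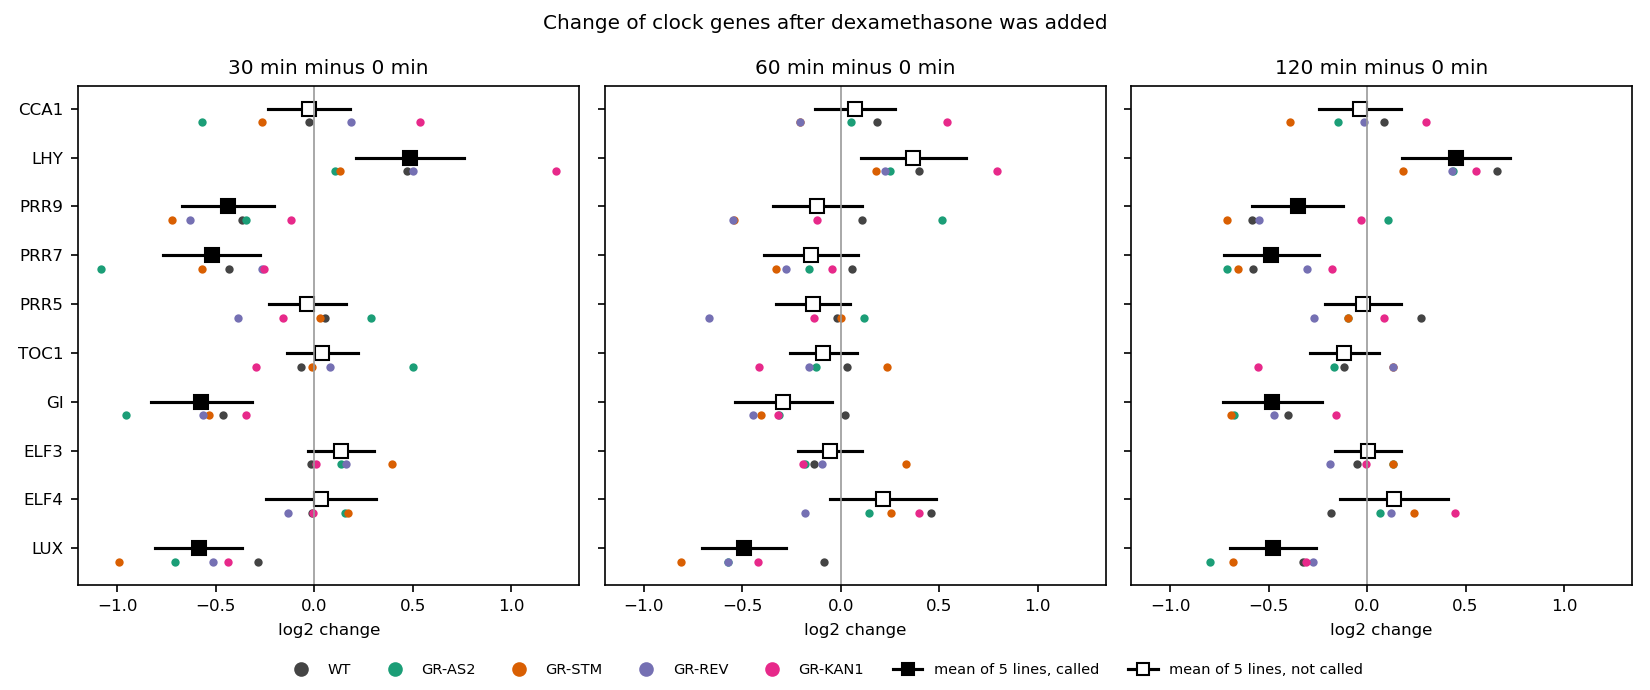
Mean log2 change from 0 min over the 5 lines (x axis, log2(FPKM + 0.5) scale) for each clock gene (y axis) at 30, 60 and 120 min, as a square with its 95% interval, filled where limma called it at an adjusted p under 0.05, and coloured dots for the single lines. The square of LUX lies near -0.59 to -0.48 in all 3 panels, and LHY is the only gene called on the positive side.

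Genes that respond within minutes to handling were measured beside these changes. TCH4, ERF5, ERF6 and ZAT10, which rise after touch or wounding, summed to 10.1 to 149.9 FPKM at 0 min, 16.8 to 53.2 at 30 min, 17.3 to 49.7 at 60 min and 26.6 to 75.1 at 120 min. At 0 min the sum was 18.5 ± 4.51 FPKM in WT (n = 6), 100.3 ± 71.4 in GR-STM (n = 3) and 71.2 ± 11.7 in GR-KAN1 (n = 3). The courses of the lines differed: at 30 min the sum was 34.8 ± 8.80 FPKM in WT, above its 0 min level, and 29.2 ± 15.7 in GR-STM and 38.4 ± 13.6 in GR-KAN1, below theirs. Against WT at 0 min, 3 of the 4 genes were called higher in GR-STM, 3 in GR-KAN1, 1 in GR-REV and 0 in GR-AS2. Beyond the change of WT, 2, 4 and 1 were called lower in GR-STM at 30, 60 and 120 min, and 1 in GR-KAN1 at 60 min. In the mean of the 5 lines TCH4 alone passed, with log2 changes of -0.63, -0.60 and -0.49 at the 3 times, and none of the 4 was listed at 0. Their part in the clock gene changes was not tested.

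Within WT alone none of the 10 clock genes passed at any time (limma, adjusted p from 0.440 upward), against 0.0567%, 0.0258% and 0.0670% of all genes at 30, 60 and 120 min. At an unadjusted p under 0.05 the counts were 2, 1 and 3 of 10, beside 5.16%, 4.08% and 8.34% of all genes. Those 6 WT estimates were -0.44 (95% interval -0.87 to 0.00) for PRR7 and -0.47 (95% interval -0.91 to -0.02) for GI at 30 min, 0.46 (95% interval 0.01 to 0.91) for ELF4 at 60 min, and 0.66 (95% interval 0.13 to 1.19) for LHY, -0.58 (95% interval -1.03 to -0.14) for PRR9 and -0.58 (95% interval -1.05 to -0.11) for PRR7 at 120 min. For LUX, called at all 3 times in the mean of the 5 lines, WT gave -0.28 (95% interval -0.67 to 0.10), -0.08 (95% interval -0.44 to 0.27) and -0.33 (95% interval -0.75 to 0.09). The WT interval of LUX at 60 min does not hold the 5-line estimate of -0.49, to which WT contributes.

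The response to each factor's move into the nucleus was tested as the change of a GR line beyond that of WT. None of the 120 tests, 10 genes by 4 lines by 3 times, passed in limma, and 6 had an unadjusted p under 0.05. At an adjusted p under 0.05, 0%, 0.0103% and 0% of all genes were called in GR-AS2 at 30, 60 and 120 min. The shares were 0.144%, 0.876% and 0.819% in GR-STM, 0.0412%, 1.18% and 0.799% in GR-REV and 0.0670%, 1.05% and 0.830% in GR-KAN1. The estimates with an unadjusted p under 0.05 were positive for TOC1 in GR-AS2 at 30 min, 0.57 (SE 0.26, adjusted p = 0.442), and negative for the rest. LUX in GR-STM stood at -0.71 (SE 0.31, adjusted p = 0.764) at 30 min and -0.73 (SE 0.30, adjusted p = 0.353) at 60 min. PRR9 at 60 min stood at -0.65 (SE 0.32, adjusted p = 0.490) in GR-STM and -0.66 (SE 0.32, adjusted p = 0.447) in GR-REV, and PRR5 at 60 min in GR-REV at -0.65 (SE 0.27, adjusted p = 0.350). Without the 5 libraries least typical of their groups, TOC1 in GR-AS2 at 30 min reached 0.87 with an adjusted p of 0.0498.

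Before the hormone was added, at 0 min, none of the 40 tests of a GR line against WT passed (limma, lowest adjusted p 0.141). The shares of all genes called were 10.3% in GR-AS2, 0.330% in GR-STM, 7.81% in GR-REV and 0.742% in GR-KAN1. In the same order, the clock genes at an unadjusted p under 0.05 numbered 0, 0, 1 and 3. At that cut the shares of all genes were 27.2%, 6.32%, 21.6% and 8.82%. LHY in GR-KAN1 had the largest difference, -0.95 (SE 0.29, adjusted p = 0.141). It passed without WT 0 min replicate 2, at -1.26 with an adjusted p of 0.0146.

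Averaged over the 4 times, GR-KAN1 differed from WT in 5 of the 10 clock genes. LHY was lower, and PRR7, PRR5, GI and ELF4 were higher. PRR9 was lower in GR-STM and in GR-REV, and no clock gene passed in GR-AS2. The shares of all genes called were 11.6% in GR-KAN1, 4.08% in GR-STM, 22.7% in GR-REV and 17.6% in GR-AS2, against 5, 1, 1 and 0 of 10 clock genes. By direction, 5.23% of all genes were higher in GR-KAN1 and 6.38% lower, beside 4 and 1 of the 10, and 1.67% were lower in GR-STM and 10.1% in GR-REV. The median log2 difference of the 10 genes in GR-KAN1 was 0.23, beside 0.01 for all genes. These comparisons share the WT libraries.

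In the 12 GR-KAN1 libraries LHY had a lowest, median and highest level of 2.99, 9.97 and 13.5 FPKM, against 5.10, 14.9 and 22.7 FPKM in the 24 WT libraries. The GR-KAN1 median lay below that of each other line, and the ranges overlapped. The log2 difference was -0.69 (SE 0.16, adjusted p = 0.00150). CCA1 did not pass in GR-KAN1, at -0.10 (95% interval -0.34 to 0.14). GI ranged over 2.19, 3.16 and 4.00 FPKM in GR-KAN1 and 0.649, 2.15 and 4.57 in WT, PRR7 over 3.94, 6.74 and 9.64 and 1.75, 4.48 and 7.12, and ELF4 over 10.9, 18.8 and 24.6 and 4.15, 9.50 and 23.7 FPKM. In each of the 3 genes the GR-KAN1 median was above the WT median, with overlap. The log2 differences were 0.60 (SE 0.14, adjusted p = 0.00315) for GI, 0.49 (SE 0.14, adjusted p = 0.0135) for PRR7 and 0.58 (SE 0.16, adjusted p = 0.0100) for ELF4. By time the ELF4 difference was 0.43 at 0 min, 0.44 at 30 min, 0.37 at 60 min and 1.06 at 120 min. PRR5 was 1.44, 2.10 and 2.95 FPKM in GR-KAN1 and 1.02, 1.71 and 3.10 in WT, a log2 difference of 0.39 (SE 0.11, adjusted p = 0.0124), which fell to 0.21 with an adjusted p of 0.109 without the code series term. All 5 calls were kept in all 36 fits that left out 1 library. The 5 log2 differences equal those of a fit to Ot79 alone, which holds 12 of the WT libraries. The medians of those 12 were 16.6 FPKM for LHY, 2.08 for GI, 4.89 for PRR7, 11.8 for ELF4 and 1.58 for PRR5. PRR9, at 0.32 (SE 0.13, adjusted p = 0.110), did not pass, while AT2G46670 did, at 0.44 (SE 0.10, adjusted p = 0.00117).

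All 4 handling genes were also higher in GR-KAN1 over the 4 times, by 0.57 for TCH4, 0.86 for ERF5, 0.69 for ERF6 and 0.90 for ZAT10 on the log2 scale, each past the test. Their summed level ranged from 25.2 to 78.4 FPKM in GR-KAN1 and from 10.1 to 45.9 FPKM in WT. Of the leaf genes, CA1 was lower in GR-KAN1 and CAB3 higher, with log2 differences of -0.65 and 1.04. Their part in the clock gene differences was not tested. In bulk seedlings fewer cells of a type and less RNA per cell cannot be told apart.

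PRR9 had a lowest, median and highest level of 0.247, 0.463 and 1.3 FPKM in the 12 GR-STM libraries, 0.242, 0.523 and 0.963 in the 11 GR-REV libraries and 0.337, 1.13 and 1.91 in WT. Both medians were under that of WT, and both ranges reached into it. The log2 difference was -0.44 (SE 0.13, adjusted p = 0.0408) in GR-STM and -0.45 (SE 0.14, adjusted p = 0.0126) in GR-REV. Both equal those of a fit to Ot79 alone, whose 12 WT libraries had a PRR9 median of 0.859 FPKM. The call in GR-STM was lost in 13 of 36 fits that left out 1 library, with adjusted p up to 0.114 (without GR-STM 0 min replicate 2), and that in GR-REV was kept in all 35. Only the groups compared gave an adjusted p of 0.0549 in GR-STM, and leaving out the 5 libraries least typical of their groups 0.131. Of the handling genes, ERF5 was also higher over the 4 times in GR-STM, by 0.59, and ERF6 and ZAT10 in GR-REV, by 0.74 and 0.83, as was ERF5 in GR-AS2, by 0.50. Their part in the PRR9 differences was not tested. AT2G46670 stood at -0.22 (SE 0.10, adjusted p = 0.302) in GR-STM and -0.31 (SE 0.10, adjusted p = 0.0192) in GR-REV. In GR-AS2 the widest difference was that of PRR7, -0.31 (SE 0.14, adjusted p = 0.109), which passed without WT 30 min replicate 3 at -0.42 with an adjusted p of 0.0165.

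**Figure D3:**
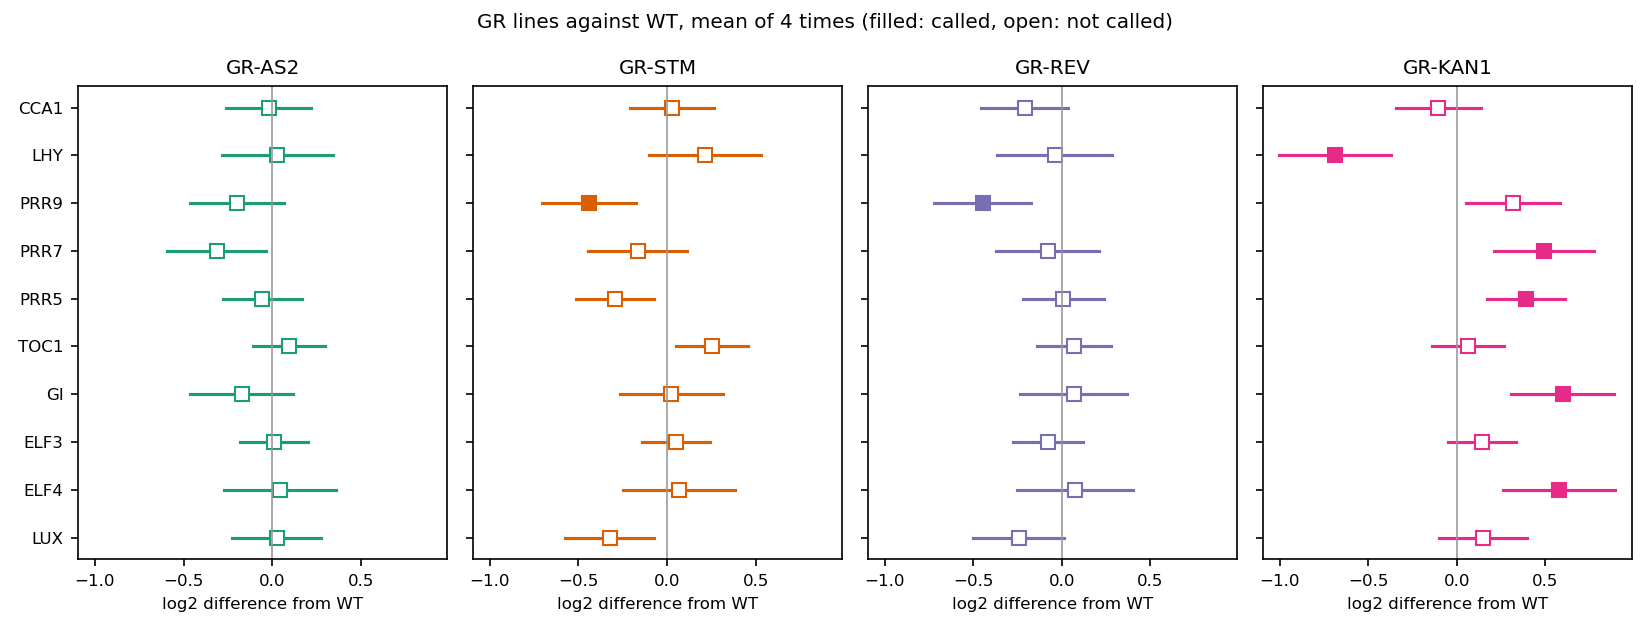
Log2 difference of each GR line from WT (x axis, mean of the 4 times, log2(FPKM + 0.5) scale) for each clock gene (y axis), with limma estimates, 95% intervals and filled marks for called genes. GR-KAN1 has 5 filled marks, with LHY on the negative side and PRR7, PRR5, GI and ELF4 on the positive side, and PRR9 is filled on the negative side in GR-STM and GR-REV.

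Replicates of WT from different code series were compared at equal time, because only WT holds more than 1 series. Ot86 differed from Ot79 in PRR5 by 0.52 (SE 0.14, adjusted p = 0.00150), in GI by 0.46 (SE 0.18, adjusted p = 0.0338), in ELF4 by -0.67 (SE 0.20, adjusted p = 0.00435) and in LUX by 0.64 (SE 0.16, adjusted p = 0.000691) on the log2 scale. OtA0 differed from Ot79 in PRR9 by 0.78 (SE 0.19, adjusted p = 0.00172) and in LUX by 0.47 (SE 0.18, adjusted p = 0.0456). These are 4 and 2 of the 10 genes, while 47.7% and 27.9% of all genes were called. CCA1 and LHY did not pass in either series. The GI call was lost in 5 of 24 fits that left out 1 library, and without WT 30 min replicate 6 the difference was 0.16 with an adjusted p of 0.519. The LUX call in OtA0 was lost in 10 of 24, with adjusted p up to 0.0971. The neighbour of LUX on the opposite strand, AT3G46650, was higher by 1.07 (SE 0.17, adjusted p = 6.50e-07) in Ot86 and 1.40 (SE 0.19, adjusted p = 2.15e-07) in OtA0. The labels do not say what the code series stand for. Within Ot79 alone the calls of the mean of 5 lines were all kept and LHY at 60 min was added, at 0.51 with an adjusted p of 0.0175, making 12. The 7 calls of the lines over the 4 times were kept too. Their log2 differences equal those of the main fit, because all GR libraries are Ot79, so Ot79 alone is no separate check of them.

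LHY and CCA1 were set against each other because they are partners that bind the same sequence, and the ratio is given as a description with no test. The log2 ratio of LHY over CCA1 was -0.23 ± 0.41 (SD, n = 18) at 0 min, 0.24 ± 0.28 (n = 17) at 30 min, 0.07 ± 0.38 (n = 18) at 60 min and 0.20 ± 0.40 (n = 18) at 120 min. LHY was above CCA1 in 6 of 18 libraries at 0 min, 12 of 17 at 30 min, 12 of 18 at 60 min and 15 of 18 at 120 min. GR-KAN1 stood apart from the other lines, with a mean log2 ratio of -0.52 ± 0.39 (n = 12) against 0.12 ± 0.28 (n = 24) in WT. After dexamethasone LHY was above CCA1 in 1 of 9 GR-KAN1 libraries and in 38 of 44 libraries of the other lines. At 0 min the ratio in GR-KAN1 was -0.86 ± 0.30 (n = 3), and at 30 min -0.10 ± 0.22 (n = 3).

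**Figure D4:**
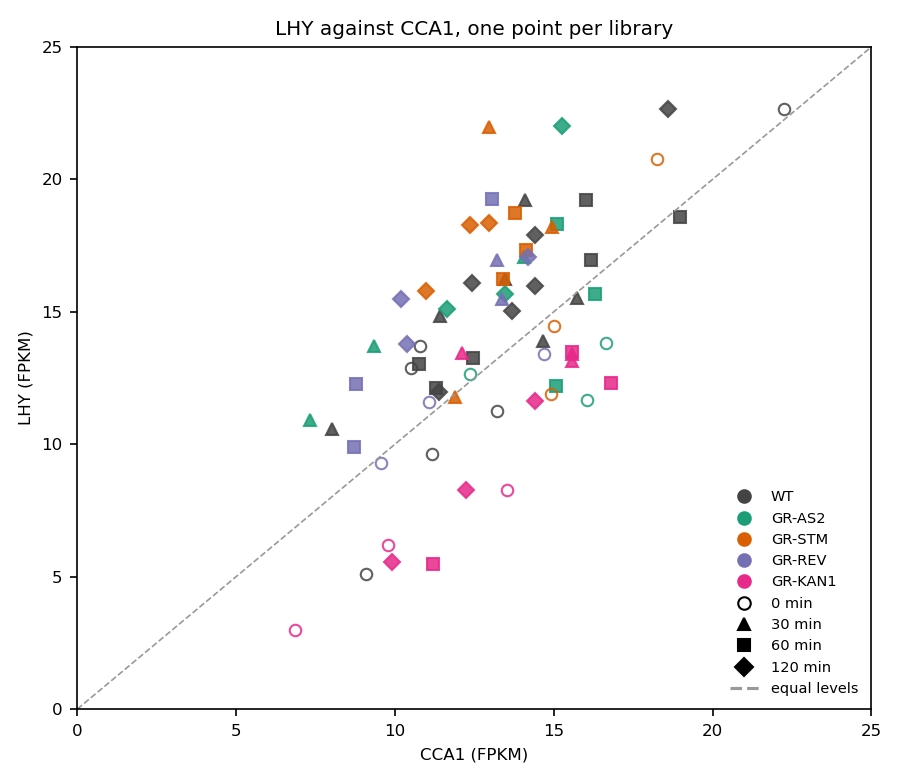
LHY against CCA1 in the 71 libraries (both axes FPKM), with a point per library, colours for lines, marker shapes for times and a dashed line where the levels are equal. Most libraries of WT, GR-AS2, GR-STM and GR-REV after dexamethasone lie above the line of equality, and those of GR-KAN1 lie below it, apart from 1.

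Within a line and time, pairs of clock genes also deviated from their group means together. Correlations were computed over 71 libraries on residuals of log2(FPKM + 0.5), with group and code series removed, for all 45 pairs of clock genes. In 18 pairs Pearson's r and Spearman's rho both passed an adjusted permutation p under 0.05, 15 positive and 3 negative, with Benjamini-Hochberg adjustment over the 45 pairs and 100000 permutations, two-sided. The smallest p they can give is 1e-05. The permutations treated the 71 residuals as independent, although the fit left 49 residual degrees of freedom. The p are therefore too small, and the weakest of the 18 pairs are the least secure. All 18 had the same sign within WT, whose 24 libraries are among the 71, so this is no separate check. The lowest r of the 18 in size within WT was 0.12, for PRR5 with ELF3. At least the smallest r and rho of these 18, 0.31 and 0.29 in size, were reached by 20.2% of all pairs of the 19406 genes tested and by no more than these 18 of the 45 pairs of clock genes. The leading axis of the residuals carried 15.1% of their variance.

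CCA1 and LHY were the closest pair, with r = 0.84 and rho = 0.83 (adjusted permutation p = 0.000112 and 0.000225). Pearson's r was 0.89 within WT, 0.83 within Ot79 and 0.80 within the GR lines, and 0.82 without the 2 libraries farthest from the median of CCA1. LUX went the opposite way, with r = -0.56 and rho = -0.51 against LHY (adjusted permutation p = 0.000112 and 0.000300) and r = -0.52 and rho = -0.44 against CCA1 (adjusted permutation p = 0.000180 and 0.00112). Libraries with more of the dawn genes than their group held less LUX. CCA1 was also negatively related to ELF4, with r = -0.46 and rho = -0.42 (adjusted permutation p = 0.000562 and 0.00148). Without the 2 farthest libraries these 3 negative r were -0.50, -0.47 and -0.42. Within Ot79 they were -0.49, -0.44 and -0.41.

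Among the day and evening genes PRR7 and GI were closest, with r = 0.68 and rho = 0.60 (adjusted permutation p = 0.000112 and 0.000225), 0.57 without the 2 farthest libraries, 0.83 within WT, 0.63 within Ot79 and 0.49 within the GR lines. PRR9 and PRR7 followed, with r = 0.51 and rho = 0.40 (adjusted permutation p = 0.000112 and 0.00262) and 0.39 without the 2 farthest. TOC1 was positively related to GI, with r = 0.48 and rho = 0.51 (adjusted permutation p = 0.000375 and 0.000337), and to ELF3, LUX and PRR5, with r = 0.46, 0.42 and 0.42. Within WT the relation of TOC1 to LUX was r = 0.13, and within the GR lines 0.59. PRR5 passed with ELF4, LUX, GI, ELF3 and PRR7, at r = 0.43, 0.39, 0.38, 0.32 and 0.31. The one with LUX came to 0.23 without the 2 farthest libraries and 0.22 within Ot79. GI with LUX and ELF3, at r = 0.36 and 0.32, and ELF3 with ELF4, at 0.37, completed the 18. Within the evening complex ELF3 and LUX did not pass, at r = -0.17, nor did ELF4 and LUX, at 0.19.

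**Figure D5:**
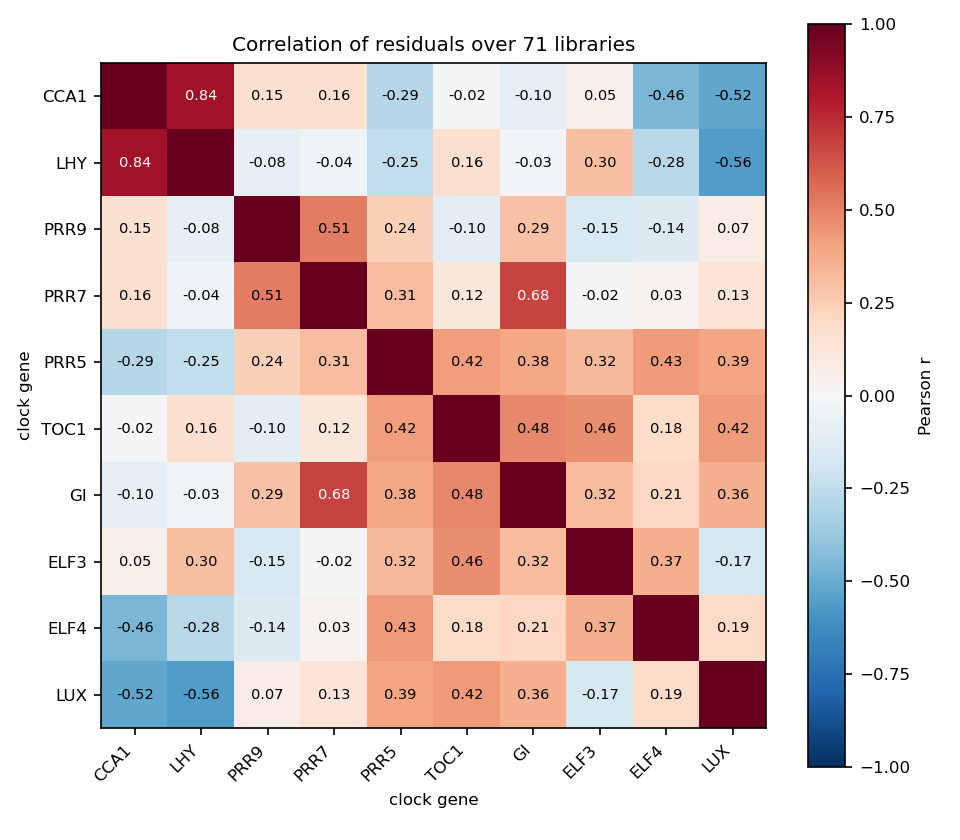
Pearson's r (colour scale from -1 to 1, printed in each cell) between the residuals of each pair of clock genes over 71 libraries, with genes on both axes. CCA1 with LHY and PRR7 with GI are the strongest positive cells, and LUX with CCA1 and LHY the strongest negative cells.

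The genes whose levels most resembled those of each clock gene over the 71 libraries were listed by Pearson's r on log2(FPKM + 0.5), a description with no test that includes differences between groups and code series. CCA1 was nearest to RVE8, another dawn MYB gene (0.67), LNK2 (0.66) and LHY (0.63). LHY was nearest to RVE8 (0.80), SVR3 (0.69) and iPGAM1 (0.65). PRR9 was nearest to AT2G46670 (0.79), with which it shares sequence, then BBX28 (0.76) and DOG1 (0.73). PRR7 was nearest to PIF4, a growth regulator under clock control (0.81), LNK1 (0.80) and GI (0.77). PRR5 was nearest to FKF1, an F-box protein of the flowering pathway (0.74), AT3G60520 (0.70) and AT2G30600 (0.70). At least 1 gene linked to the clock stood among the nearest 3 of each of CCA1, LHY, PRR7, PRR5, GI and ELF4. TOC1 was nearest to XBAT35 (0.73), MEKK1 (0.71) and AT4G31200 (0.69), and GI to PRR7 (0.77), AT3G54790 (0.74) and AT2G21380 (0.73). ELF3 was nearest to PUM6 (0.75), AT1G53780 (0.72) and VCS (0.71). ELF4 was nearest to AT4G17800 (0.69), AT1G22065 (0.69) and GRP7, a clock-regulated RNA-binding protein (0.68). LUX was nearest to the autophagy genes ATG13 (0.82) and ATG3 (0.79) and to AT5G10650 (0.79). Among the 100 nearest genes of each, the other clock genes were LHY for CCA1, CCA1 for LHY, PRR7 for PRR9, PRR9 and GI for PRR7, LUX for PRR5 and PRR7 for GI, and none for TOC1, ELF3, ELF4 and LUX.

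A list of 43 other clock and clock-linked genes gave the surroundings of the 10. In the mean of the 5 lines the genes that rose numbered 3, 2 and 3 at 30, 60 and 120 min, and those that fell 12, 3 and 7. These are 15, 5 and 10 of 43, beside 6.06%, 5.30% and 10.6% of all genes. Among the morning activators, LNK1, a partner of the RVE proteins, changed by -0.78 (SE 0.11, adjusted p = 2.37e-06) at 30 min and -0.45 (SE 0.11, adjusted p = 0.00351) at 120 min on the log2 scale. LNK3 and RVE7, of the LNK and RVE families, fell at 30 min, with log2 changes of -0.45 and -0.68. The MYB-related gene RVE2 rose at 30 min, by 0.63, and RVE2 and RVE1 rose at 120 min, by 0.54 and 0.47. PIF4, a growth-promoting bHLH factor, changed by -0.88 (SE 0.16, adjusted p = 0.000174) at 30 min and -0.87 (SE 0.15, adjusted p = 9.18e-05) at 120 min. Of the photoreceptors PHYA fell at 30, 60 and 120 min, with log2 changes of -0.46, -0.37 and -0.64. CDF1, a repressor of flowering, fell at the same times, with log2 changes of -0.39, -0.37 and -0.44. The cryptochrome CRY1 fell at 30 and 120 min, with log2 changes of -0.26 and -0.23, and CRY2 at 30 and 60 min, with -0.22 and -0.21. BBX19, a B-box factor, rose at all 3 times, by 0.34, 0.38 and 0.33, and its relative BBX18 fell at 30 min, at -0.35. CDF3 fell at 30 min, at -0.32, and CDF2 rose at 60 min, by 0.26. CO, a promoter of flowering, rose at 30 min, by 0.40, PIF5 fell then, at -0.34, and CHE fell at 120 min, at -0.28. CAT2, a catalase with a morning phase, fell at 30 and 120 min, with log2 changes of -0.53 and -0.49.

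Against WT over the 4 times, 5 of the 43 were higher and 1 lower in GR-KAN1, 0 and 10 in GR-AS2, 0 and 3 in GR-STM, and 1 and 11 in GR-REV. The shares of all genes called in these lines were 11.6%, 17.6%, 4.08% and 22.7%, beside 6, 10, 3 and 12 of 43. These counts lay little above the shares of all genes. The directions were less even among the few called of the 43 than among all genes called. Of the 19406 genes tested, 1669 were higher and 1749 lower in GR-AS2, and 2449 and 1951 in GR-REV. In GR-STM 467 were higher and 324 lower, and in GR-KAN1 1015 and 1239. The difference in direction between the 43 and all genes was not tested. The gene lower in GR-KAN1 was RVE8, the nearest gene to LHY, at -0.40 (SE 0.10, adjusted p = 0.00428). The 5 higher were FKF1, which acts with GI, at 0.64 (SE 0.13, adjusted p = 0.000338), TIC at 0.66, PRMT5 at 0.22, GRP8 at 0.46 and PIF5 at 0.31. In GR-AS2 the genes lower included RVE7 at -0.85, PIF4 at -0.73, CAT2 at -0.60, LNK1 at -0.43, PIF5 at -0.40, BBX18 at -0.34 and LNK3 at -0.31. In GR-REV they included CAT2 at -0.90, RVE7 at -0.87, PIF4 at -0.77, LNK4 at -0.49, CO at -0.44, BBX18 at -0.40, RVE4 at -0.29 and CRY1 at -0.26, and the gene higher was CAT3 at 0.89. CHE, a TCP factor that represses CCA1, passed in GR-AS2, GR-STM and GR-REV at -0.50, -0.43 and -0.31, and CDF1 at -0.55, -0.81 and -0.71, as did CDF3 at -0.51, -0.40 and -0.49. Beyond the change of WT, CDF1 in GR-STM at 60 min was the only gene of the 43 called in any of the 12 comparisons, at -1.34 (SE 0.26, adjusted p = 0.00229).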

How the data were processed

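The authors deposited 1 table of FPKM values with a column per library, described in the series text as geometric-normalized between libraries. Reads had been handled with TopHat2 2.0.10 and Cufflinks on TAIR10, per the submitters' processing notes (strand use and annotation version: not given in the sources used here). Complementary DNA was primed with oligo dT, per the labels' protocols, and all replicates are called biological in the series text. Of 22346 entries, 14 placeholders were left out. Values were taken as log2(FPKM + 0.5), and 19406 genes with a highest group mean of at least 1 FPKM were tested with limma 3.58.1 in R 4.3.3. The model held 20 group means and the code series over all 71 libraries (49 residual degrees of freedom), with a trend on mean level and Benjamini-Hochberg adjustment over all genes tested. The fit was tested on simulated data. Fold changes on this scale understate those of low genes such as PRR9. Depth is unknown.

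Every clock gene is described in all groups. The 3 genes nearest to each by Pearson's r, and the other clock genes that were called, are named by rule. The 10 genes and the lists were chosen with earlier results of these data known. Gene positions, symbols and upstream sequences are from RefSeq TAIR10.1, matched by locus tag; the deposited table gives no coordinates. The alternatives were 2 other pseudocounts, no filter and a stricter filter on low values, no code series term, Ot79 alone, quantile normalization, no trend, a replicate block, only the groups compared, and each library left out. Another, without the 5 least typical libraries, was chosen after seeing the data.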

Additional observations from a re-analysis of the deposited data

Results flagged for a closer look

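In 40 groups of 6 WT libraries, 1 for each clock gene at each time, 6 held a library far from the other 5 by Dixon's test, where chance gives about 1 in 20, or 2 groups. That chance holds for 6 libraries of 1 population, whereas each WT group joined Ot79 with libraries of other code series, and the part of the code series in these values was not tested. CCA1 was highest in WT 0 min replicate 5, at 22.3 FPKM with the nearest library at 13.2 FPKM. TOC1 was lowest in WT 0 min replicate 2, at 4.23 FPKM with the nearest at 7.19 FPKM. PRR5 and GI were both highest in WT 30 min replicate 6, at 3.10 and 4.57 FPKM, with the nearest at 1.72 and 2.10 FPKM. That library is the only one of Ot86 in its group. Ot86 was higher than Ot79 in both genes, but that comparison includes this library. Without it the GI difference was 0.16 (limma adjusted p = 0.519), and the PRR5 call was kept whichever library was left out. ELF4 was highest in WT 60 min replicate 1 at 20.5 FPKM, against 12.2 FPKM for the nearest, and in WT 120 min replicate 6 at 23.7 FPKM, against 9.05 FPKM. Of the libraries named, WT 0 min replicate 5 was also of Ot86, WT 120 min replicate 6 of OtA0, and WT 0 min replicate 2 and WT 60 min replicate 1 of Ot79.

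TOC1 moved in opposite directions in a pair of lines, since every GR-STM library at 60 and 120 min lay above those of 0 min and every GR-KAN1 library lay below. The mean log2 changes were 0.23 in GR-STM and -0.42 in GR-KAN1 at 60 min, and 0.13 and -0.55 at 120 min. The difference between the lines was 0.65 (SE 0.29, limma adjusted p = 0.253) at 60 min and 0.69 (SE 0.29, adjusted p = 0.349) at 120 min, and did not pass. How many of all genes separate as TOC1 did was not counted.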

How the results depend on the processing

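The counts of calls on clock genes were 11 of 30 for the change with time over the 5 lines, 0 of 30 for that in WT, 0 of 40 for the GR lines at 0 min, 7 of 40 for the GR lines over the 4 times, 0 of 120 beyond WT and 6 of 20 for the code series. Pseudocounts of 0.1 and 1, and a fit with no trend, left all 6 counts as they were, and no count moved by over 1.5 times with no filter, quantile normalization, only the groups compared or Ot79 alone. With a mean of at least 5 FPKM required, which left 10999 genes and took PRR9, PRR7, PRR5, GI and ELF3 out, the counts were 5 over the 5 lines, 2 for the GR lines over the 4 times and 3 for the code series. Without the code series term, 1 clock gene was called at 0 min, LHY in GR-KAN1, and 11 for the GR lines over the 4 times; the cause was not tested. The 11 then included LUX in GR-STM and GR-REV at -0.61 and -0.53, PRR5 in GR-STM at -0.47, and PRR9 and GI in GR-AS2 at -0.33 each. Without the 5 least typical libraries, TOC1 in GR-AS2 at 30 min was the 1 gene called beyond WT, and the cause was not tested. Leaving out each library in turn gave 9 to 12 calls over the 5 lines, 0 to 0 in WT, 0 to 1 at 0 min, 6 to 8 for the GR lines over the 4 times, 0 to 0 beyond WT and 5 to 7 for the code series. The replicate block gave 11, 0, 0, 7 and 0 calls, with 1 column dropped. Libraries of the same number had a median correlation of deviations of 0.0081 over 551 pairs, and others -0.0055 over 1102 pairs, so the numbers did not pair the samples. No value changed sign under any of these alternatives while called. The number of libraries, 2 to 6 per group, limits the precision of each value.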
